A study of Mus musculus with 24 samples.

Results

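Peroxisomes shorten fatty acids that mitochondria handle poorly, and the transcripts of 45 genes that encode their oxidation enzymes, their membrane transporters and the proteins that build them were followed here in livers of fasted mice. The genes were listed by symbol with no threshold on their values, and all 45 symbols were found among the 54532 rows of the count table. RNA-seq covered 24 livers of male mice that were 8 to 10 weeks old and had been without food for 24 h, 4 per group in 6 groups. The first 4 groups carried floxed alleles: ff;ff had Rab30 and Cpt2 floxed without Cre and were littermates of DKO, Rab30L-/- lacked Rab30 in the liver, Cpt2L-/- lacked Cpt2 in the liver, and DKO lacked both. Cre was driven by the albumin promoter to delete the floxed genes in hepatocytes, and which cells had lost them was not tested here. Of these 4 groups only ff;ff had no Cre, so in comparisons with ff;ff gene loss and presence of Cre cannot be told apart. The labels name ff;ff as littermates of DKO only, so litter or line cannot be told apart from genotype for Rab30L-/- and Cpt2L-/-. The remaining groups were Rab30KO, in which exon 4 of Rab30 is deleted in every tissue, and Rab30 Ctrl, their littermates with intact Rab30. Rab30 is a small GTPase of the Golgi apparatus, and Cpt2 is the carnitine palmitoyltransferase of the inner mitochondrial membrane that long-chain fatty acids need to enter mitochondrial beta-oxidation.

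Peroxisomal beta-oxidation takes up very-long-chain, branched-chain and dicarboxylic acyl-CoAs through ABCD transporters. An acyl-CoA oxidase opens the cycle and passes electrons to oxygen, which gives hydrogen peroxide for catalase to break down, and a bifunctional enzyme and a thiolase complete each turn. Peroxins, the products of the Pex genes, insert membrane proteins, import matrix enzymes from the cytosol and divide the organelle. In rodent liver many of these genes are textbook targets of the nuclear receptor Pparα, which fatty acids activate in fasting.

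Library totals ranged from 11801027 to 24497738 counts, and the 4 libraries of each group differed among themselves by more than counting noise. Levels are given as CPM, the count of a gene relative to its library total after TMM scaling over all 24 libraries, in the order of replicates 1 to 4. The counts of the targeted genes cover the whole gene, including exons that a deletion leaves, so they do not show whether the floxed part was lost. Cpt2 was at 128, 139, 133 and 128 CPM in ff;ff, 95.3, 116, 167 and 128 CPM in Cpt2L-/-, 268, 214, 226 and 169.7 CPM in Rab30L-/- and 97.7, 96.1, 106 and 120.0 CPM in DKO. Rab30 was at 25.9, 44.6, 44.6 and 31.2 CPM in ff;ff, 19.2, 10.4, 26.6 and 12.3 CPM in Rab30L-/-, 122, 129, 188 and 149 CPM in Cpt2L-/-, 129.7, 101, 231 and 183 CPM in DKO, 30.1, 11.3, 6.64 and 8.54 CPM in Rab30 Ctrl and 12.4, 5.39, 9.6 and 17.4 CPM in Rab30KO. Neither gene's count separated every labelled knockout from its controls, and every group name below is the name on the label. The summed CPM of 6 hepatocyte markers ran from 94390 to 126900 in ff;ff, 76630 to 92130 in Rab30L-/-, 44460 to 53250 in Cpt2L-/- and 59040 to 71270 in DKO, with none of the 6 at 0. In these bulk livers, fewer cells of a type and less RNA per cell cannot be told apart.

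By the authors' FPKM, which divides by gene length and so allows levels of different genes to be set side by side, the transcripts spanned more than 3 orders of magnitude in ff;ff livers. Of the 45 genes, 2 were at 1000 FPKM or more, 10 between 100 and 1000, 21 between 10 and 100, 10 between 1 and 10, and 2 under 1. Phyh, the phytanoyl-CoA hydroxylase that opens alpha-oxidation of branched chains, led with 1526 ± 335 FPKM (SD, n = 4). Scp2, whose longer product is a thiolase for branched chains, followed with 1085 ± 225 FPKM, and then came Cat, catalase, with 833 ± 195 FPKM. Acaa1b, a ketoacyl-CoA thiolase, Ephx2, the soluble epoxide hydrolase, and Ehhadh, the L-bifunctional enzyme, stood at 654 ± 192, 601 ± 131 and 345 ± 90.4 FPKM. Neighbours in this order mostly could not be separated: of 44 neighbouring pairs, the ranges of the 4 ff;ff libraries lay apart in 5. Far1, the fatty acyl-CoA reductase of ether lipid synthesis, was near the bottom at 0.275 ± 0.0748 FPKM. Hao2, a hydroxyacid oxidase, was the lowest, at no more than 0.711 CPM in any of the 24 libraries, and it fell under the filter on low counts in every comparison, which leaves 44 genes tested.

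In Cpt2L-/- livers this order changed at the top. Ehhadh led with 3374 ± 546 FPKM and Acaa1b came next with 3054 ± 583 FPKM, ahead of Scp2 at 1304 ± 201 FPKM. The summed CPM of all 45 genes was 19620 ± 2634 in ff;ff and 19370 ± 2946 in Rab30L-/-, against 34510 ± 2911 in Cpt2L-/- and 34340 ± 5495 in DKO (SD, n = 4 each). Without Ehhadh and Acaa1b the sums were 17350 ± 2473, 17290 ± 1832, 18620 ± 1415 and 19340 ± 2024 CPM in the same order. Ehhadh and Acaa1b together held 11.6% ± 2.76 of the peroxisomal counts in ff;ff and 45.9% ± 4.35 in Cpt2L-/-, and 43.3% ± 3.57 in DKO. The larger sum in the livers labelled as lacking Cpt2 therefore came mostly from this pair of genes.

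**Figure D1:**
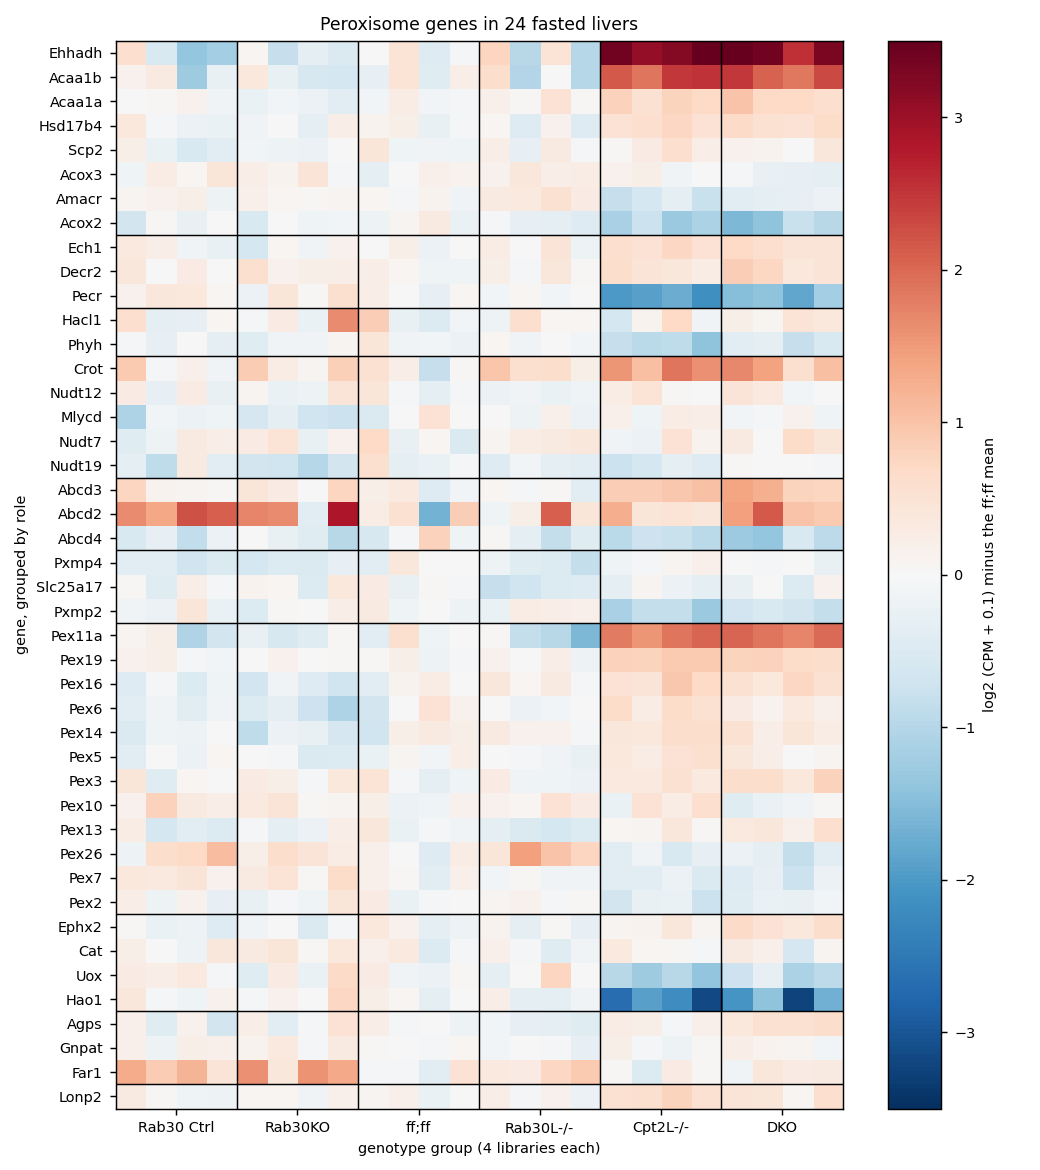
Levels of the 44 tested genes in each of the 24 livers, as the log2 of CPM plus 0.1 less the mean of the ff;ff libraries (colour scale), with genes in rows grouped by role and libraries in columns by genotype. Ehhadh, Acaa1b and Pex11a are red and Hao1 and Pecr blue in all 8 Cpt2L-/- and DKO livers, beyond the colours of the Rab30 Ctrl, Rab30KO, ff;ff and Rab30L-/- columns for these 5 genes.

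The first comparison asked what liver loss of Cpt2, with Cre present only in the knockouts, does to these transcripts when Rab30 is intact. A gene was called when edgeR's quasi-likelihood test, adjusted by Benjamini-Hochberg over all genes tested, gave p below 0.05 and the fold change was 1.2 or more in either direction. In Cpt2L-/- against ff;ff, 11 of the 44 genes rose and 10 fell, so 47.7% were called, against 23.8% of the 13270 genes tested (11.9% higher and 11.9% lower). The median log2 fold change was 0.14 over the 44 genes and -0.0035 over all genes, so rises and falls nearly balanced. The libraries of the groups did not overlap for 23 of the 44 genes (52.3%), against 26.7% of all genes. Hepatocyte markers moved with this comparison, 4 of 6 being lower in Cpt2L-/-, as did 3 of 6 Kupffer cell and macrophage markers, whose summed CPM ran from 105 to 159 in Cpt2L-/- and 129 to 244 in ff;ff with none at 0. Also lower were 1 of 6 sinusoidal endothelial cell markers and 1 of the 4 bile duct cell markers tested. Their part in these results was not tested.

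Among the enzymes of the beta-oxidation cycle, 4 of 8 rose and 2 fell, where 11.9% of all genes were called higher and 11.9% lower. Ehhadh (ENSMUSG00000022853, chromosome 16, 21761287 to 21787807, minus strand of GRCm38) was at 1001, 1361, 727 and 953 CPM in ff;ff and at 10334, 8286, 9147 and 12028 CPM in Cpt2L-/-. The groups were far apart, a 9.77-fold rise (log2 fold change 3.29, SE 0.23, adjusted p = 1.63e-06). Acaa1b (ENSMUSG00000010651, chromosome 9, 119148023 to 119157093, minus strand) went from 1002, 1695, 905 and 1439 CPM to 5445, 4507, 6783 and 7002 CPM, a 4.67-fold rise (log2 fold change 2.22, SE 0.24, adjusted p = 3.08e-05). Its paralog Acaa1a rose less, from 405, 515, 402 and 419 CPM to 752, 623, 745 and 708 CPM (log2 fold change 0.69, SE 0.15, adjusted p = 0.00445), and again every Cpt2L-/- library was above every ff;ff library. Hsd17b4, the D-bifunctional enzyme that handles branched chains and bile acid intermediates, rose with a log2 fold change of 0.56 (SE 0.15). On the falling side was Acox2, the oxidase for branched chains and bile acid intermediates, at 329, 400.0, 469 and 318 CPM in ff;ff and 171, 222, 152 and 173 CPM in Cpt2L-/- (log2 fold change -1.09, SE 0.18, adjusted p = 0.000656). Amacr, the racemase that readies branched chains for the cycle, fell with a log2 fold change of -0.64. Scp2 and Acox3, another branched-chain oxidase, did not pass the test, with log2 fold changes of 0.26 and 0.04. Scp2 lies 120229 bases from Cpt2 on chromosome 4.

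The Acaa1 pair shares so much sequence that reads could have been credited to the wrong gene. Over 1272 aligned coding bases, the pair was 96.5% identical in GENCODE M21, with 44 differing positions. Of all 50-base windows of Acaa1a, 37.9% were found whole in Acaa1b, and 24.1% of 100-base windows were. The stretch of coding bases 259 to 318, counted from the first base of the start codon, holds 11 of the differences and shows where reads can be told apart; capitals mark the differing letters.
Acaa1a: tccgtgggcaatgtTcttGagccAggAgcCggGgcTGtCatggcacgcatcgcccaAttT
Acaa1b: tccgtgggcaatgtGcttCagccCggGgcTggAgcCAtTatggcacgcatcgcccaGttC
The counting method is not given in the sources used here, so the split of counts between the paralogs is uncertain, and how many reads of one were credited to the other was not tested.

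Of 3 further enzymes that act on double bonds of acyl-CoAs, Pecr fell, Ech1 rose and Decr2 was not called. Pecr (ENSMUSG00000026189, chromosome 1, 72259167 to 72284314, minus strand), a trans-enoyl-CoA reductase, was at 156, 133, 110.2 and 139 CPM in ff;ff and fell to 32.9, 35.5, 39.8 and 29.9 CPM (log2 fold change -1.98, SE 0.15, adjusted p = 2.78e-06). The Cpt2L-/- level was 0.254 of the ff;ff level, with no overlap. Its exons share 175 bases with D230017M19Rik on the opposite strand, whose count was 6.21% of that of Pecr. Ech1, a dienoyl-CoA isomerase, rose (log2 fold change 0.57, SE 0.14, adjusted p = 0.012), and Decr2, a dienoyl-CoA reductase, did not pass the test (log2 fold change 0.41, adjusted p = 0.0655). In alpha-oxidation, Phyh fell from 3766, 2578, 2599.8 and 2409.8 CPM to 1608, 1443, 1509.7 and 1053 CPM (log2 fold change -1.03, SE 0.2, adjusted p = 0.002), although it remained among the most abundant of these transcripts. The lyase of the same pathway, Hacl1, had a log2 fold change of -0.01 (95% interval -0.73 to 0.71).

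Of the genes for CoA, acyl-CoA and nucleotide handling, Crot alone rose. Crot, the carnitine octanoyltransferase that readies shortened chains for export to mitochondria, was at 596, 483, 234 and 423 CPM in ff;ff and 1193, 848, 1507 and 1254 CPM in Cpt2L-/- (log2 fold change 1.45, SE 0.26, adjusted p = 0.00144). Nudt19, a CoA diphosphatase, was called lower (log2 fold change -0.59, SE 0.19, adjusted p = 0.0399), while Nudt7, Nudt12 and Mlycd, the malonyl-CoA decarboxylase, were not called, with log2 fold changes of 0.02, 0.17 and 0.08. Among the ABCD transporters, Abcd3, which imports branched-chain and dicarboxylic acyl-CoAs, rose from 658, 730.3, 423 and 535 CPM to 1037, 1034, 1098 and 1158 CPM (log2 fold change 0.87, SE 0.18, adjusted p = 0.00343). Abcd4 fell (log2 fold change -0.96, SE 0.25, adjusted p = 0.0134), with a log2 fold change of -0.61 without ff;ff replicate 3, which was at 51.9 CPM against 20.1 to 28.1 CPM in the other ff;ff livers. It is best known for cobalamin transport from lysosomes rather than for a peroxisomal role. Abcd2, which imports very-long-chain acyl-CoAs, was not called and varied widely, at 3.76 to 22.3 CPM in ff;ff and 16.1 to 29.5 CPM in Cpt2L-/-. Pxmp2, a channel protein of the peroxisomal membrane, fell from 135, 96.8, 109 and 96.6 CPM to 49.3, 61.2, 60.5 and 44.3 CPM (log2 fold change -1.04, SE 0.16, adjusted p = 0.000503). The carrier Slc25a17 and the membrane protein Pxmp4 were not called, at log2 fold changes of -0.21 and -0.02.

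Of the 12 peroxins, 3 rose and 1 fell, where 23.8% of all genes were called. Pex11a (ENSMUSG00000030545, chromosome 7, 79735957 to 79743131, minus strand), which elongates and divides peroxisomes, was at 127, 247, 151 and 170.3 CPM in ff;ff and 596, 493, 613 and 686 CPM in Cpt2L-/-, a 3.41-fold rise (log2 fold change 1.77, SE 0.21, adjusted p = 6.07e-05). Pex19, the carrier of new membrane proteins, rose from 135, 151, 116 and 129 CPM to 229, 226, 249.5 and 249 CPM (log2 fold change 0.83, SE 0.13, adjusted p = 0.000565). Pex16, which receives Pex19 cargo at the membrane, rose from 73.7, 104, 114 and 96.5 CPM to 136, 132, 185 and 156 CPM (log2 fold change 0.63, SE 0.16, adjusted p = 0.0133). All 4 Cpt2L-/- livers were above all 4 ff;ff livers for each of these 3 genes. Pex2, of the ubiquitin ligase that recycles the import receptor, was called lower at a log2 fold change of -0.48, close to the threshold (adjusted p = 0.0492). The other 8 peroxins, Pex3, Pex5, Pex6, Pex7, Pex10, Pex13, Pex14 and Pex26, had log2 fold changes from -0.40 to 0.45 and were not called.

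The tested oxidases outside the fatty acid cycle fell, and catalase was not called. Hao1 (ENSMUSG00000027261, chromosome 2, 134497361 to 134554368, minus strand), the glycolate oxidase, was at 121, 110.0, 84.8 and 106 CPM in ff;ff and 16.3, 28.1, 23.3 and 11.7 CPM in Cpt2L-/- (log2 fold change -2.42, SE 0.24, adjusted p = 2.46e-05). This was the largest fall, to 0.186 of the ff;ff level. Uox (ENSMUSG00000028186, chromosome 3, 146570426 to 146632305, plus strand), urate oxidase, went from 1795, 1341, 1286 and 1502 CPM to 746, 616, 744 and 569 CPM (log2 fold change -1.16, SE 0.17, adjusted p = 0.000287). The groups did not overlap for either oxidase. Cat had a log2 fold change of 0.07 (95% interval -0.35 to 0.49) and Ephx2 of 0.14 (-0.24 to 0.53). Lonp2, the protease of the peroxisomal matrix, rose (log2 fold change 0.59, SE 0.14, adjusted p = 0.00884). The ether lipid genes Gnpat, Agps and Far1 were not called, with log2 fold changes of -0.0016, 0.15 and -0.06.

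**Figure D2:**
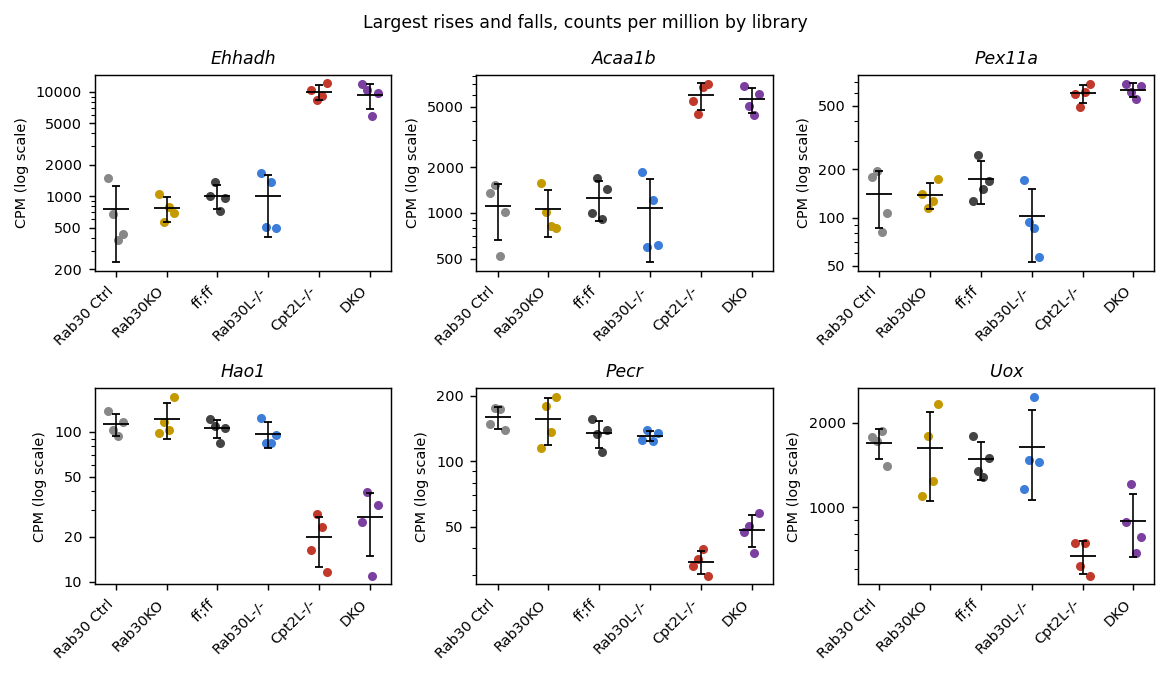
CPM (log axis) of the 3 genes with the largest rises and 3 falling genes in each liver, one panel per gene, with points for libraries, a bar for the group mean and error bars for 1 SD (n = 4). The 8 Cpt2L-/- and DKO livers lie between 4423 and 7002 CPM for Acaa1b, above every other liver, and between 11 and 39.7 CPM for Hao1, below every other liver.

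Since the largest rises and falls sit in a few genes, the 250 bases before the RefSeq start site were compared for Ehhadh and Acaa1b, which rose most, and Hao1 and Pecr, which fell most. The windows are from GRCm38.p6, printed along each gene's own strand, with GC boxes (GGGCGG) and CCAAT boxes (CCAAT) of either strand in capitals.
Ehhadh (chr16:21787835-21788084, minus strand): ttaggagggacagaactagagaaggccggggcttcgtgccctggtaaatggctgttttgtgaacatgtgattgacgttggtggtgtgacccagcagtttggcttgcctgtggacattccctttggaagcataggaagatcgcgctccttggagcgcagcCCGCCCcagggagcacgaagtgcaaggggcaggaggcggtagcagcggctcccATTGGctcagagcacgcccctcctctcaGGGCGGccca
Acaa1b (chr9:119157094-119157343, minus strand): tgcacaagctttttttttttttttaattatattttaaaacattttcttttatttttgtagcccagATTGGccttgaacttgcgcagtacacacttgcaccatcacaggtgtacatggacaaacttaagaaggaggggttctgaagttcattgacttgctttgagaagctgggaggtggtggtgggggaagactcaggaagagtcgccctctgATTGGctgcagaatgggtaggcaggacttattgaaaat
Hao1 (chr2:134554353-134554602, minus strand): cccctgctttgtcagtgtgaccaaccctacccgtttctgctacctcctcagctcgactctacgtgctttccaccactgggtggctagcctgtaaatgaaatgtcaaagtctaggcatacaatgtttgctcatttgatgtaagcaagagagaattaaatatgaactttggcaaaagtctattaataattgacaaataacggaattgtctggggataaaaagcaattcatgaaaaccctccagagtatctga
Pecr (chr1:72284322-72284571, minus strand): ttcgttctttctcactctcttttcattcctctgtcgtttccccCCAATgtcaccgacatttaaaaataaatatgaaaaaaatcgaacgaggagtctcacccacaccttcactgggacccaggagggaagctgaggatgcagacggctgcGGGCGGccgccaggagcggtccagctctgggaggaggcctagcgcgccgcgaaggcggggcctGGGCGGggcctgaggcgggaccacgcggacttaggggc
Ehhadh and Pecr, which moved in opposite directions, have alike windows by these measures, with 2 GC boxes and 1 CCAAT box each, and Ehhadh has a GC content of 60.4%. Acaa1b and Hao1, which also moved in opposite directions, have no GC box and a GC content of 41.6% each, and differ in the CCAAT box, with 2 in Acaa1b and none in Hao1. Windows were found for 36 of the 45 genes. The GC box was in 23 of these (63.9%), against 35.4% of the 27025 genes with a window, noncoding genes included. By call in Cpt2L-/- against ff;ff, it was in 6 of 9 higher, 1 of 6 lower and 16 of 20 uncalled genes with a window, Pecr being the lower gene that holds it, and no test was made of this split. The CCAAT box was in 16 (44.4% against 37.5% of all genes) and the letters TATAAA in 3 (8.33% against 14.3%). A direct repeat of AGGTCA with 1 base between the copies, the consensus of the element that Pparα binds, was in none of the 36 windows, and 0.0407% of all genes hold it there. A single AGGTCA was in Cat and Scp2, neither of them called in this comparison, and in 15.8% of all genes. These letters were searched on both strands of this window only, and regulatory elements farther from the start site or within introns were not searched.

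The same deletion was also profiled on the Rab30L-/- background, as DKO against Rab30L-/-, with no library in common with the first comparison. There 13 of 44 genes rose and 10 fell (52.3%), against 30.7% of the 13292 genes tested (14.9% higher and 15.8% lower), and the libraries did not overlap for 25 (56.8%), against 31.5% of all genes. The median log2 fold change was 0.30 over the 44 genes. Of the 21 genes called first and the 23 called here, 15 were shared, which is 71.4% and 65.2% of the lists. All 15 moved the same way, 7 up and 8 down. Over all genes tested in both comparisons, 1734 calls were shared, of which 1684 were in the same direction, and those were 54.6% and 41.9% of the lists. The sign was the same for 37 of 44 genes (84.1%), against 66.4% of all genes. Pearson's r of the log2 fold changes was 0.91 across the 44 genes, which are not independent replicates, and 0.57 across all genes. Such an r leans on the genes of largest change, and r without them was not computed. In Cpt2L-/- against ff;ff, log2 fold changes ran from -2.42 to 3.29 over the 44 genes and from -10.7 to 9.91 over all.

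Ehhadh, Acaa1b and Pex11a again rose most. Ehhadh was at 1661, 507, 1368 and 495 CPM in Rab30L-/- and 11830.0, 10325, 5825 and 9677 CPM in DKO (log2 fold change 3.23, SE 0.45, adjusted p = 0.000824). Acaa1b went from 1853, 598, 1208 and 613 CPM to 6833, 5053, 4423 and 6042 CPM (log2 fold change 2.39, SE 0.37, adjusted p = 0.00113), and Pex11a from 172, 93.8, 85.9 and 56.4 CPM to 686, 613, 552 and 667 CPM (log2 fold change 2.62, SE 0.3, adjusted p = 0.000221). The groups were apart for each of the 3 genes although Rab30L-/- livers spread widely, the highest being over 3 times the lowest. Abcd3, at 607, 547, 595 and 439 CPM and 1483, 1364, 985 and 973 CPM, rose with a log2 fold change of 1.14. Pex19 (146, 134, 156 and 117 CPM to 229, 230.3, 205 and 203 CPM, log2 fold change 0.65), Acaa1a (493, 444, 609 and 449 CPM to 865, 704, 702 and 645 CPM, log2 fold change 0.55) and Hsd17b4 (log2 fold change 0.73) complete the 7 shared rises.

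The 8 shared falls were those of Hao1, Pecr, Uox, Acox2, Pxmp2, Phyh, Abcd4 and Amacr. Hao1 was at 124, 84.5, 83.9 and 95.7 CPM in Rab30L-/- and 25.1, 39.7, 11 and 32.5 CPM in DKO (log2 fold change -1.84, SE 0.34, adjusted p = 0.00435), and Pecr at 126, 139, 125 and 135 CPM and 47.5, 50.5, 38 and 58.2 CPM (log2 fold change -1.43, SE 0.14, adjusted p = 4.77e-05). Both genes kept their groups apart. Acox2 went from 364, 308, 302 and 272 CPM to 126, 140.3, 217 and 191 CPM (log2 fold change -0.88), and Pxmp2 from 93, 131, 128 and 124 CPM to 67.7, 74.8, 68.9 and 60.4 CPM (log2 fold change -0.80). Uox, at 1156, 1468, 2480.1 and 1448 CPM and 885, 1208, 687 and 781 CPM, overlapped in 1 pair of libraries, DKO replicate 2 lying above Rab30L-/- replicate 1 (log2 fold change -0.87, adjusted p = 0.0197). Phyh fell from 2925, 2582, 2758 and 2616 CPM to 2121, 2218, 1588 and 1945 CPM, a log2 fold change of -0.47 beside -1.03 on the floxed background. Amacr and Abcd4 had log2 fold changes of -0.66 and -0.63.

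Called here and not in the first comparison were 8 genes, 6 up and 2 down. Pex13, of the docking complex for matrix import, went from 59.5, 53, 49.3 and 53.9 CPM to 94.7, 99.4, 84.3 and 113 CPM (log2 fold change 0.86, SE 0.12, adjusted p = 0.000494), and Agps, the alkyl synthase of ether lipids, had a log2 fold change of 0.79 (adjusted p = 0.000928). Ephx2, Pex3, which anchors Pex19 at the membrane, Slc25a17, which carries CoA and nucleotides, and Decr2 rose with log2 fold changes of 0.65, 0.65, 0.47 and 0.45. Pex26, the membrane anchor of the complex that extracts the import receptor, fell from 53.8, 109, 79.4 and 67.6 CPM to 34.4, 31.2, 22.1 and 30.7 CPM (log2 fold change -1.38, SE 0.21, adjusted p = 0.000797). Acox3 fell with a log2 fold change of -0.51. Conversely, the 6 genes called in the first comparison alone had log2 fold changes here of 0.62 for Crot, 0.40 for Ech1, 0.35 for Pex16, 0.35 for Lonp2, -0.30 for Pex2 and 0.30 for Nudt19, with adjusted p from 0.0605 to 0.101. Nudt19 alone of these 6 had the opposite sign. Pex16 ran from 94 to 127 CPM in Rab30L-/- and from 123 to 159.7 CPM in DKO, and the ranges overlapped. In this comparison 3 of 6 hepatocyte markers and 5 of 6 Kupffer cell and macrophage markers were lower in DKO, the latter summing to 177 to 530 CPM in Rab30L-/- and 109 to 129 CPM in DKO with none at 0. Of the sinusoidal endothelial cell markers 2 of 6 were higher in DKO, with sums of 198 to 217 CPM in Rab30L-/- and 236 to 314 CPM in DKO, while 1 of 6 stellate cell markers and 1 of the 3 bile duct cell markers tested were lower. The part of these markers in the results was not tested.

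**Figure D3:**
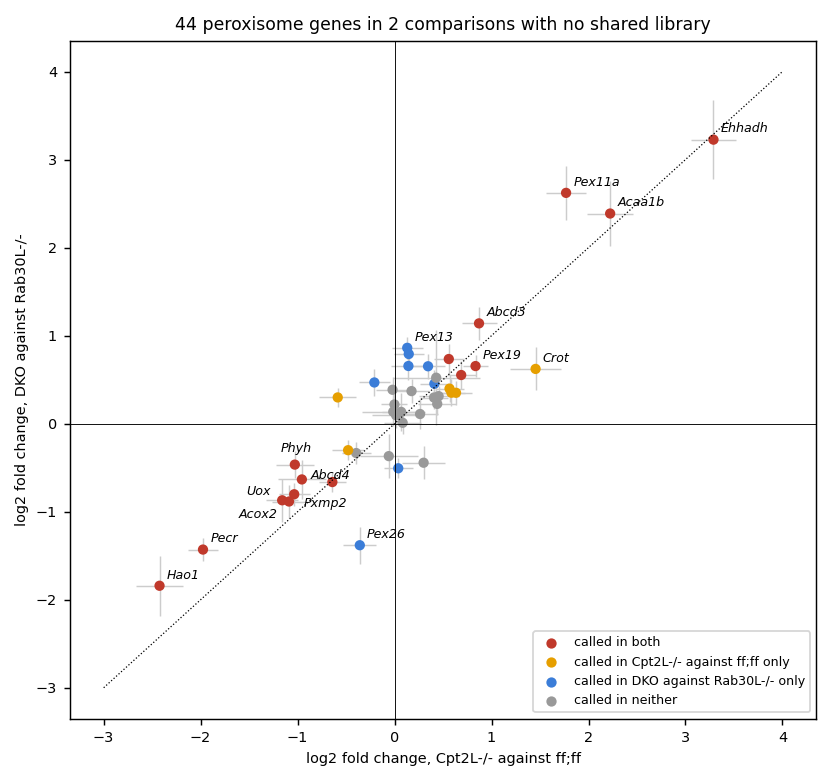
Log2 fold change of each of the 44 genes in Cpt2L-/- against ff;ff (horizontal axis) and in DKO against Rab30L-/- (vertical axis), with bars of 1 SE, colours for the calls and a dotted line of equality. Ehhadh, Acaa1b and Pex11a stand at the upper right and Hao1 and Pecr at the lower left in both comparisons, while Pex13 and Pex26 lie away from the line.

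Some calls near the threshold were lost in both comparisons when 1 liver was left out, with folds that kept their direction. The log2 fold change of Hsd17b4 in the first comparison stayed within 0.48 to 0.63, that of Pex2 within -0.56 to -0.38 and that of Nudt19 within -0.69 to -0.36, the smallest without ff;ff replicate 1. In the second, Phyh stayed within -0.52 to -0.36, Abcd4 within -0.80 to -0.46, Uox within -1.05 to -0.62, Decr2 within 0.37 to 0.53, Slc25a17 within 0.37 to 0.58 and Acaa1a within 0.47 to 0.65. In Cpt2L-/- against ff;ff, Nudt19 was lost without any one of ff;ff replicates 1 and 4 and Cpt2L-/- replicates 1, 2 and 4 (adjusted p up to 0.1), Pex2 without ff;ff replicates 1, 3 and 4 and Cpt2L-/- replicates 1, 2 and 4 (adjusted p up to 0.165) and Hsd17b4 without ff;ff replicate 4 and Cpt2L-/- replicate 3 (adjusted p up to 0.0518). In DKO against Rab30L-/-, Phyh was lost without any single one of the 8 livers (adjusted p up to 0.0994). Also lost there were Abcd4 without Rab30L-/- replicates 1, 2 and 4 and DKO replicates 1, 2 and 4 (adjusted p up to 0.127), Decr2 without Rab30L-/- replicates 1, 2 and 4 and DKO replicates 1 and 2 (adjusted p up to 0.124), Slc25a17 without Rab30L-/- replicates 1 and 2 and DKO replicates 2 and 4 (adjusted p up to 0.0892), Acaa1a without Rab30L-/- replicates 2 and 4 and DKO replicate 1 (adjusted p up to 0.0607) and Uox without DKO replicates 1, 3 and 4 (adjusted p up to 0.0595). The shared calls that survived every one of these repeats included Ehhadh, Acaa1b, Pex11a, Abcd3, Pex19, Hao1, Pecr, Acox2 and Pxmp2.

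DKO against ff;ff measures loss of both genes and presence of Cre at once, and it shares its livers with the comparisons above. Its values therefore stand beside them and are not independent of them. Here 13 of 44 genes rose and 6 fell (43.2%), against 16.1% of the 13389 genes tested (7.87% higher and 8.24% lower), and 21 (47.7%) did not overlap, against 20.5% of all genes. The log2 fold change was 3.21 for Ehhadh, 2.14 for Acaa1b, 1.85 for Pex11a, 1.15 for Crot, 1.03 for Abcd3, 0.74 for Acaa1a and 0.70 for Pex19. Crot was at 1326, 1081, 602 and 860.3 CPM in DKO, where replicate 3 lay close to the highest ff;ff liver, and at 811, 607, 626 and 474 CPM in Rab30L-/-. Decr2, Pex3, Hsd17b4, Ech1, Pex16 and Agps also rose, by 0.50 to 0.59 on the log2 scale. Hao1, Pecr, Acox2, Abcd4, Uox and Pxmp2 fell, with log2 fold changes of -1.97, -1.48, -1.18, -1.09, -0.74 and -0.69. Phyh was not called (log2 fold change -0.53, adjusted p = 0.0804), nor was Abcd2 (adjusted p = 0.141), with DKO livers at 32.9, 54, 24.2 and 23 CPM. The count of called genes went from 19 to 10 without DKO replicate 1, to 11 without DKO replicate 2 and to 11 without ff;ff replicate 4. Leaving out 1 liver at a time also ended other calls, and the livers named are those whose removal did so. Agps was lost without any of DKO replicates 1, 2, 3 and 4 and ff;ff replicates 2, 3 and 4 (adjusted p up to 0.0985), and Pex16 without DKO replicates 1, 2, 3 and 4 and ff;ff replicates 1, 2 and 4 (adjusted p up to 0.115). Pex3 was lost without DKO replicates 1, 2 and 4 and ff;ff replicates 2, 3 and 4 (adjusted p up to 0.126), Decr2 without DKO replicates 1 and 2 and ff;ff replicates 2, 3 and 4 (adjusted p up to 0.0917) and Hsd17b4 without DKO replicates 1, 2 and 4 and ff;ff replicates 3 and 4 (adjusted p up to 0.0793). Uox was lost without DKO replicates 1, 3 and 4 and ff;ff replicates 1 and 4 (adjusted p up to 0.0714), Ech1 without DKO replicates 1 and 2 and ff;ff replicates 3 and 4 (adjusted p up to 0.0922), Crot without DKO replicates 1 and 2 and ff;ff replicate 4 (adjusted p up to 0.0622) and Abcd4 without DKO replicates 1, 2 and 4 (adjusted p up to 0.074). Of the hepatocyte markers 3 of 6, of the Kupffer cell and macrophage markers 2 of 6, and of the bile duct cell markers 1 of the 5 tested, were lower in DKO than in ff;ff, and their part in these results was not tested.

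The second question was whether loss of Rab30 changes these transcripts, and in 3 comparisons few of them moved past the test. Rab30KO against Rab30 Ctrl called none of the 44 genes by edgeR, against 0.022% of the 13656 genes tested, with 1 gene at an unadjusted p under 0.05 and none called by DESeq2. No gene had groups apart, against 1.31% of all genes. For the main enzymes the intervals were wide: the 95% interval of the log2 fold change was -0.87 to 0.94 for Ehhadh, -0.79 to 0.64 for Acaa1b and -0.60 to 0.55 for Pex11a. They were narrower for Pex19 (-0.32 to 0.28), Amacr (-0.29 to 0.33) and Cat (-0.22 to 0.56). For 42 of the 44 genes the interval stayed within a 2-fold change either way. The gene with the unadjusted p of 0.0486 was Nudt19, at 43.5, 29.6, 68.1 and 42 CPM in Rab30 Ctrl and 35, 33.2, 27.2 and 35.1 CPM in Rab30KO. Rab30 Ctrl livers varied widely in Ehhadh, at 1492, 678, 384 and 433 CPM, while Rab30KO livers were at 1042, 563, 789 and 692 CPM. No cell marker tested was called in this comparison.

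Rab30L-/- against ff;ff also called none of the 44 genes by edgeR, against 0.479% of the 13367 genes tested. An unadjusted p under 0.05 was reached by 6 of them, and 4 (9.09%) had groups apart, against 6.38% of all genes. Those 4 were Pex26, higher in Rab30L-/- with a log2 fold change of 0.92 (SE 0.22, adjusted p = 0.109), Slc25a17, lower at -0.62 (SE 0.15, adjusted p = 0.131), Pex13, at -0.50, and Amacr, at 0.36. Pex26 and Slc25a17 were called by DESeq2's Wald test and without the filter on low counts, and Pex26 in the fit over all 24 libraries. Pex11a had a log2 fold change of -0.78 (95% interval -1.50 to -0.05), and the ff;ff and Rab30L-/- ranges of 127 to 247 and 56.4 to 172 CPM overlapped. Ehhadh and Acaa1b differed by -0.02 and -0.25 on the log2 scale, with intervals of -0.90 to 0.87 and -1.06 to 0.56. Rab30L-/- replicates 1 and 3 held about 2 to 3 times the CPM of replicates 2 and 4 for both enzymes. No cell marker tested was called in this comparison. Sinusoidal endothelial cell markers summed to 198 to 217 CPM in Rab30L-/- and 220 to 326 CPM in ff;ff, and hepatocyte markers to 76630 to 92130 and 94390 to 126900 CPM. Kupffer cell and macrophage markers summed to 177 to 530 CPM in Rab30L-/- and 129 to 244 CPM in ff;ff. The part of these markers was not tested.

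In DKO against Cpt2L-/-, where Rab30 is lost on top of Cpt2, 1 gene was called, against 2.71% of the 13306 genes tested (1.38% higher and 1.33% lower). Nudt19 was at 32.5, 35.4, 42.9 and 39.6 CPM in Cpt2L-/- and 55.8, 54.4, 54.5 and 52 CPM in DKO, higher in every DKO liver (log2 fold change 0.54, SE 0.11, adjusted p = 0.0327). The call was lost without any one of DKO replicates 1 and 2 and Cpt2L-/- replicates 1, 2 and 4 (adjusted p up to 0.0992) and in a fit over all 24 libraries. Nudt19 shares 938 exon bases, 35.0% of its length, with B230322F03Rik on the opposite strand, whose count was 0.581% of its own. Groups were apart for 2 genes (4.55%), Nudt19 and Agps, against 13% of all genes, and 12 genes had an unadjusted p under 0.05. DESeq2 called 4 genes, adding Pecr (log2 fold change 0.51), Phyh (0.50) and Ephx2 (0.38), all higher in DKO. For the genes that had risen most with loss of Cpt2, no difference between DKO and Cpt2L-/- passed the test, the intervals being -0.52 to 0.38 for Ehhadh, -0.46 to 0.31 for Acaa1b and -0.20 to 0.38 for Pex11a. No cell marker tested was called either. Summed hepatocyte markers were nevertheless apart, at 59040 to 71270 CPM in DKO and 44460 to 53250 CPM in Cpt2L-/-, and their part was not tested.

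**Figure D4:**
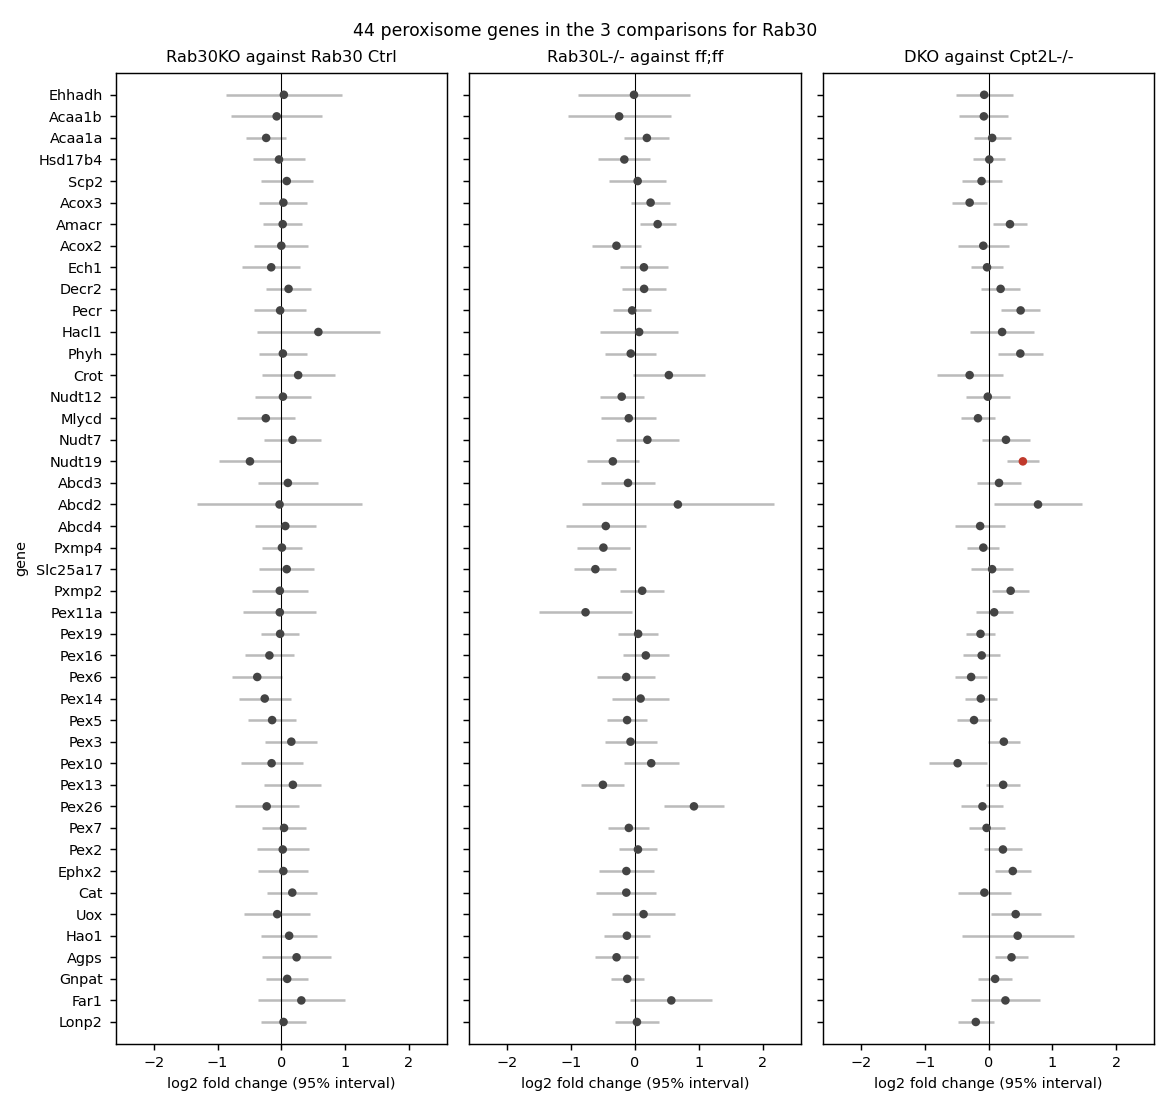
Log2 fold changes (points) with 95% intervals (grey lines) of the 44 genes in Rab30KO against Rab30 Ctrl, Rab30L-/- against ff;ff and DKO against Cpt2L-/-, with called genes in red. Nudt19 in DKO against Cpt2L-/-, at 0.54, is the only red point, and most intervals lie within 1 unit of 0.

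Whether the effect of losing Cpt2 depended on Rab30 was tested as an interaction over the 16 livers of the floxed lines. The interaction is the log2 fold change of DKO against Rab30L-/- less that of Cpt2L-/- against ff;ff. Since ff;ff alone had no Cre, the presence of Cre enters this difference and cannot be told apart from an effect of Rab30. Of the 44 genes, 3 passed (6.82%), against 4.06% of the 14063 genes tested (2.2% with a positive and 1.86% with a negative interaction), and 12 had an unadjusted p under 0.05. Nudt19 had an interaction of 0.89 (SE 0.22, adjusted p = 0.0324). Its levels were 80.4, 43.9, 46.6 and 53.3 CPM in ff;ff and 39.7, 51.2, 43.3 and 42.4 CPM in Rab30L-/-, and ff;ff replicate 1 stood above all others. Pex13 had an interaction of 0.73 (SE 0.2, adjusted p = 0.0443), with 99.2, 64.6, 72.2 and 69 CPM in ff;ff and 79.4, 80.6, 99.9 and 76.9 CPM in Cpt2L-/-. Pex26 had one of -1.02 (SE 0.28, adjusted p = 0.0457), with 45.2, 40.3, 29.2 and 47.4 CPM in ff;ff and 30.5, 36.3, 27.6 and 32.8 CPM in Cpt2L-/-. For Pex26 and Pex13 the group that stood apart was Rab30L-/-, high for the first and low for the second. All 3 calls were close to the threshold and were lost in a fit over all 24 libraries. Leaving out 1 liver ended the call of Nudt19 in 8 of 16 fits, without Rab30L-/- replicates 3 and 4, DKO replicates 1, 2 and 3 and Cpt2L-/- replicates 1, 2 and 4 (adjusted p up to 0.0627). It ended that of Pex13 in 10, without Rab30L-/- replicates 2, 3 and 4, DKO replicates 1, 2 and 4, ff;ff replicate 1 and Cpt2L-/- replicates 1, 2 and 4 (adjusted p up to 0.1). For Pex26 it did so in 13, without Rab30L-/- replicates 2, 3 and 4, DKO replicates 2, 3 and 4, ff;ff replicates 1, 2 and 3 and Cpt2L-/- replicates 1, 2, 3 and 4 (adjusted p up to 0.0924). For Ehhadh, Acaa1b and Hao1 the interaction was -0.06 (-1.07 to 0.96), 0.17 (-0.75 to 1.10) and 0.59 (-0.35 to 1.52). Of the cell markers, 1 of 6 for hepatocytes passed with a positive and 1 of 6 for stellate cells with a negative interaction. Kupffer cell and macrophage markers, none of which passed, had a median of -0.78. The part of these markers in the results was not tested.

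**Figure D5:**
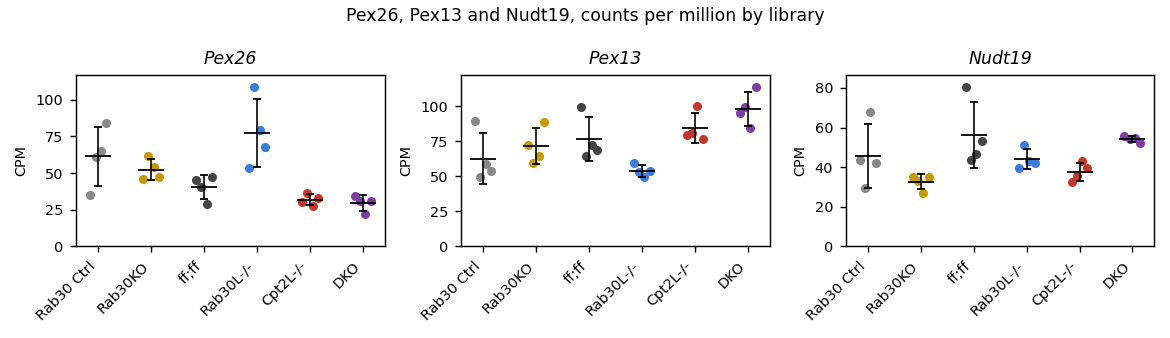
CPM (linear axis from 0) of Pex26, Pex13 and Nudt19 in each liver by genotype, with points for libraries, a bar for the mean and error bars for 1 SD (n = 4). Rab30L-/- livers are highest for Pex26 and lowest for Pex13 among the floxed lines, and the 4 DKO livers lie within 52.0 to 55.8 CPM for Nudt19.

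A further 33 genes with peroxisomal products were counted to set these results in the wider organelle, of which 32 were tested. Cpt2L-/- against ff;ff called 5 of them higher and 6 lower, where 23.8% of all genes were called, and DKO against Rab30L-/- called 9 higher and 11 lower, where 30.7% of all genes were called. In both comparisons Hsdl2, a dehydrogenase-like protein with a sterol carrier domain, Acad11, an acyl-CoA dehydrogenase, Tmem135, a membrane protein, Acot8, an acyl-CoA thioesterase, and Eci2, an enoyl-CoA isomerase, rose, with log2 fold changes in the first from 0.51 to 0.90. Pipox, which oxidizes pipecolic acid and sarcosine, Paox, a polyamine oxidase, Baat, which conjugates bile acids, Acnat2 and Mpv17l fell in both, Pipox most in the first (log2 fold change -1.86, SE 0.15, adjusted p = 3.26e-06). In the comparisons for Rab30, none of the 32 was called in Rab30KO against Rab30 Ctrl (0.022% of all genes) or in DKO against Cpt2L-/- (2.71%), and 1, Gstk1, the kappa glutathione transferase, was called lower in Rab30L-/- against ff;ff (log2 fold change -1.10, SE 0.2, adjusted p = 0.0352), where 0.479% of all genes were called. It alone of the 32 passed in the interaction, against 4.06% of all genes, with a value of 2.11 (adjusted p = 0.00172).

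Spread within groups ranged more widely over genes than over groups. The median coefficient of variation of a gene over the 4 livers of a group ran from 12.4% in Cpt2L-/- and 12.7% in DKO to 20.3% in ff;ff. By gene, it was lowest for Amacr (7.88%) and Pex19 (8.49%) and highest for Abcd2 (48.4%), Hacl1 (35.1%), Acaa1b (32.0%), Crot (29.8%), Ehhadh (26.7%), Abcd4 (25.3%) and Pex11a (24.3%). Ehhadh, Acaa1b, Pex11a and Crot, the 4 largest rises in Cpt2L-/- livers, were thus among the 7 genes that varied most between livers of 1 group. Hacl1 shares 108 exon bases with Btd on the opposite strand, whose count was 164% of its own, and the strand used in counting is not given in the sources used here.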

How the data were processed

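RNA-seq of livers was analysed in 6 groups of 4, which the study's methods call biological replicates, by the genotype on the labels. The authors deposited whole-number counts of reads per gene without normalization and FPKM values per gene, which divide counts by gene length and library size. HISAT2, DESeq2 and the builds GRCm38 and mm10 are named in the submitters' processing notes. The counter, the annotation and the use of strand are not given in the sources used here. The authors also deposited normalized counts and tables of fold changes and p-values for their own comparisons, which were not used.

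Genes were kept by filterByExpr, scaled by TMM and tested by the quasi-likelihood test of edgeR 4.0.16 in R 4.3.3 (glmQLFit with robust estimation), separately on the 8 libraries of each comparison, with 16 in the interaction. P-values were adjusted by Benjamini-Hochberg across every gene tested, and calls needed an adjusted value below 0.05 together with a fold change of 1.2 or more, the fold threshold of the study. Alternatives were the size factors and the Wald test of DESeq2 1.42.0, no filter, a fit over all 24 libraries and each library left out. FPKM was used only to set genes side by side within groups. Promoter windows came from RefSeq, and gene positions and paralog coding sequences from GENCODE M21. Of the 45 genes, 44 had the same position in that annotation as in the deposited table; Decr2 did not.

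Values in every library are given for the 8 highest and 6 lowest log2 fold changes called in Cpt2L-/- against ff;ff, for up to 6 of the largest called in every other comparison, and for Acaa1a and Acaa1b; the other genes are given by range or fold change. Members and lists were chosen with earlier results of these data known.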

Additional observations from a re-analysis of the deposited data

Results flagged for a closer look

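Among the 17 genes given library by library, each of the 6 groups of 4 livers was screened by Dixon's ratio for a liver far from the other 3, 102 screens in all. Chance flags about 1 screen in 20, and 5 were flagged. Abcd3 was at 958 CPM in Rab30 Ctrl replicate 1 and 587 to 624 CPM in the others. Acaa1a was at 515 CPM in ff;ff replicate 2 and 402 to 419 CPM in the others. Pxmp2 was at 147 CPM in Rab30 Ctrl replicate 3 and 91.3 to 98.6 CPM in the others. Phyh was at 3766 CPM in ff;ff replicate 1 and 2410 to 2600 CPM in the others. Pex13 was at 99.9 CPM in Cpt2L-/- replicate 3 and 76.9 to 80.6 CPM in the others.

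The test of the interaction was passed by 3 of 44 genes (6.82%), against 4.06% of all genes tested, which is not far from it. For Pex26 and Pex13 the group that stood apart was Rab30L-/-, and the presence of Cre enters the interaction as well. The difference in log2 fold change was 0.73 for Pex13, -1.02 for Pex26 and 0.89 for Nudt19. All 3 calls were lost in the fit over all 24 libraries, and leaving out 1 library ended them in 10, 13 and 8 of 16 fits, in the same order.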

How the results depend on the processing

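All 67 gene-level calls of the 7 tests kept their direction under the alternatives tried. Leaving out 1 library kept 437 of 560 repeats past the threshold, and the other alternatives kept 257 of 268. The 11 lost were Pex2 in Cpt2L-/- against ff;ff, Phyh in DKO against Rab30L-/-, Agps in DKO against ff;ff and the interaction of Pex13 without the filter, and, in the fit over all 24 libraries, Abcd4 and Slc25a17 in DKO against Rab30L-/-, Agps in DKO against ff;ff, Nudt19 in DKO against Cpt2L-/- and the interactions of Nudt19, Pex13 and Pex26. When single libraries were dropped, the number of the 44 genes called was 18 to 23 in Cpt2L-/- against ff;ff, 18 to 25 in DKO against Rab30L-/-, 10 to 20 in DKO against ff;ff, 0 to 2 in DKO against Cpt2L-/-, 0 to 1 in Rab30L-/- against ff;ff, 0 to 0 in Rab30KO against Rab30 Ctrl and 0 to 5 in the interaction. Over all genes, the counts were 2352 to 3459, 3204 to 3976, 1485 to 2675, 57 to 445, 23 to 93, 0 to 4 and 300 to 679 in the same order, the 57 arising without Cpt2L-/- replicate 4. Calls in DKO against ff;ff that were lost without 1 library were those of Agps, Pex16, Pex3, Decr2, Hsd17b4, Uox, Ech1, Crot and Abcd4.

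In DKO against Cpt2L-/-, where 1 of the 44 genes and 360 of all genes were called, DESeq2's Wald test called 4 and 1032, no filter 2 and 705, and the fit over all 24 libraries 0 and 114. In Rab30L-/- against ff;ff, with 0 and 64 called, DESeq2 called 2 and 298, no filter 2 and 240, and the fit over all 24 libraries 1 of the 44, Pex26. In Rab30KO against Rab30 Ctrl, with 3 genes called in all, DESeq2 called 10, no filter 6 and the fit over all 24 libraries 9. In the interaction, with 3 and 571 called, DESeq2 called 1080 genes in all, and the fit over all 24 libraries 0 of the 44 and 374 in all. The cause was not tested. The median log2 fold change of all genes moved by under 0.1 with the scaling.

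No paired analysis was possible because the groups compared share no numbers in the labels, which do not give the litter of each mouse. With 4 livers a group, the 95% interval lay within a 2-fold change either way for 42 of the 44 genes in Rab30KO against Rab30 Ctrl, 37 in Rab30L-/- against ff;ff and 28 in the interaction, and larger changes are not excluded for the others. Counts without molecular identifiers and without a stated strand leave paralogs and overlapping genes uncertain.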

Other observations

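Among the 44 genes tested, Abcd2 had the highest median coefficient of variation within groups (48.4%), and ran from 9.24 to 87.5 CPM in the Rab30KO livers.

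Mitochondrially encoded transcripts took 4.31% to 4.86% of counts in Rab30L-/- and 6.60% to 7.67% in DKO, with no overlap. They took 6.10% to 7.32% in Cpt2L-/- and 4.66% to 5.30% in ff;ff replicates 2 to 4, all below every Cpt2L-/- liver, while ff;ff replicate 1 was at 7.86%. The part of this share in the results was not tested.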
